A study of Mus musculus with 8 samples.

Results

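Serpins are a family of proteins most of which block proteases by presenting a loop that the protease cuts and is then trapped by. Here every gene whose symbol starts with Serpin was taken from the gene table, except Serping1, which left 20 of the 13437 genes with deposited values. GENCODE M21 annotates 60 protein-coding mouse serpin genes on the same terms, and those without a row were not analysed here. The 20 genes were 11 of clade b, 3 of clade a, 3 of clade e and 1 each of clades f, h and i.

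Serpins trap serine proteases and, in some members, cysteine proteases in an irreversible complex. Clade b serpins mostly stay inside the cell, where they guard against proteases that leak from lysosomes or granules, while most other clades are secreted and act on plasmin, thrombin and leukocyte proteases. A few members, among them the collagen chaperone Serpinh1, inhibit no protease. In stratified epithelia such as that of the cornea several clade b genes are expressed in the resting tissue.

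RNA came from corneas of C57BL/6 female mice 6 to 8 weeks old, in a model of dry eye disease. The disease group received 5 µl of 0.2% BAC in both eyes 2 times daily for 7 days, and the control group received PBS in both eyes. BAC is a preservative detergent that damages the ocular surface. There were 4 corneal samples of each group, numbered by the sample titles. The labels do not say how many mice or eyes made up a sample, so p-values measure the spread between these 8 samples, which may be technical.

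Expression was given as FPKM, fragments relative to the length of the transcript and to the size of the library, and read depth is unknown. The summed FPKM per sample ran from 268629 to 283538. Of 12967 genes tested with limma, 5845 were higher and 2926 lower with BAC at an adjusted p of 0.05, together 67.6%. Scaling by median of ratios made this split 4431 to 4237, and quantile normalization made it 3930 to 4990. The median log2 change of all genes was 0.19 on the deposited values, 0.01 with the ratio scaling and -0.08 with quantile normalization. Single genes moved by more or less than this median, as the plot of changes under 3 scalings shows for the serpins. Krt12, the keratin of corneal epithelium, averaged 10.5 ± 2.98 FPKM in BAC corneas and 10320 ± 228 FPKM in controls (SD, n = 4).

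Of the 20 serpin genes 19 had a mean of at least 0.5 FPKM over the 8 samples and were tested. With BAC 13 were higher and 2 lower, and 4 did not pass the threshold. Among all genes tested 45.1% were higher and 22.6% lower. The median log2 change of the tested serpins was 1.88, against 0.19 for all genes. In 15 of the 20 genes the groups were free of overlap, where 63.5% of all genes tested were. Serpina3g, Serpina3i and Serpine3 were at or near 0 with PBS and were kept by the filter only through their BAC values. For these 3 the direction of change was thereby set. Serpinb1b did not reach the filter.

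**Figure D1:**
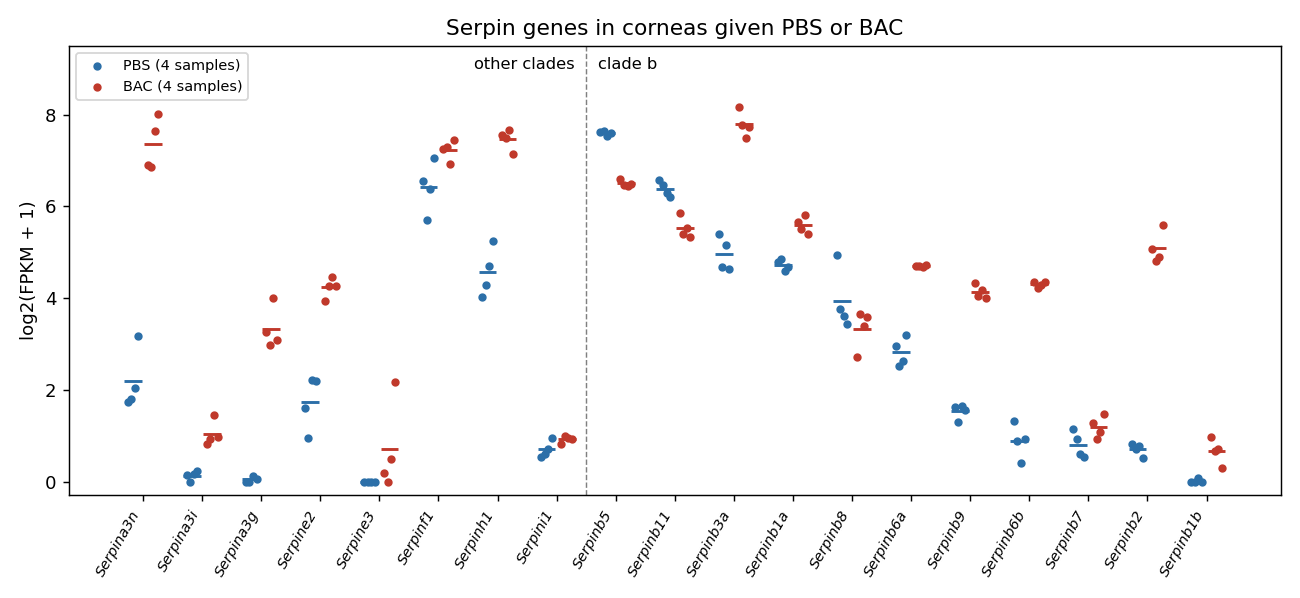
Level of 19 of the 20 serpin genes as log2(FPKM + 1) in each sample, with clade b to the right of the dashed line; blue points are the 4 PBS samples, red points the 4 BAC samples and bars the group means. Serpinb5 and Serpinb11 are the genes whose BAC samples all lie below their PBS samples, and 12 of the genes shown have all BAC samples above all PBS samples, with Serpinb1b among these and Serpinf1 not.

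Serpin transcripts as a whole took a larger part of the corneal mRNA with BAC. Levels of different genes are compared here as the sum of each gene's transcript FPKM, because the deposited gene values divide by the length of all annotated exons. This lowers genes with many alternative exons. The transcript sum was 3.56 times the gene value for Serpinb6a and 3.73 times for Serpine2, while it was 1.08 times for Serpinb5. Over the 20 genes the transcript FPKM came to 1205, 1053, 1273 and 1191 in BAC samples 1 to 4 and to 537, 465, 513 and 581 in PBS samples 1 to 4. The lowest BAC sample was well above the highest PBS sample.

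The order of the genes also differed between the groups. In PBS corneas Serpinb5 led with 210 ± 5.86 transcript FPKM, or 40.3% of the family, followed by Serpinb11 at 87.4 ± 10.5 and Serpinf1 at 78.6 ± 40.4, which do not differ beyond their spread. Serpinb1a at 31.7 ± 2.87, Serpinb3a at 31.6 ± 8.62 and Serpinh1 at 27.6 ± 10.5 transcript FPKM came next and lay within each other's spread. In BAC corneas Serpinb3a at 227 ± 46.3, Serpinh1 at 201 ± 32.8 and Serpina3n at 173 ± 68.9 transcript FPKM led, again within each other's spread. Serpinb5 followed at 97.3 ± 3.85 transcript FPKM, or 8.28% of the family, near Serpinb6a at 89.8 ± 4.24. Serpinf1 was at 96.7 ± 41.4 transcript FPKM, but its deposited transcripts leave out part of its gene value, which was 150 ± 21.5 FPKM, so its place in either order is uncertain. Clade b made up 77.0% ± 9.20 of serpin transcript FPKM with PBS and 51.6% ± 5.94 with BAC (SD, n = 4).

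**Figure D2:**
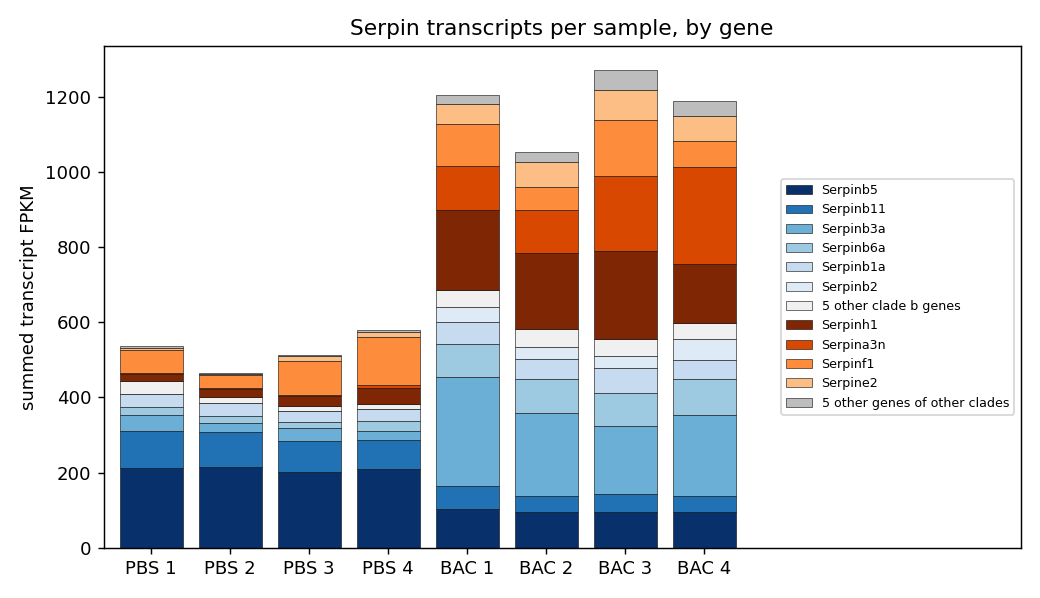
Summed transcript FPKM of the serpin family in each sample, split by gene. Named clade b genes are in blue shades and named genes of the other clades in orange shades. The remaining clade b genes are pooled in light grey, and the remaining genes of the other clades in darker grey. Serpinb5 is the largest block in each PBS sample, while Serpinb3a, Serpinh1 and Serpina3n fill most of the added height in the BAC samples.

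Outside clade b Serpina3n and Serpina3g, both of clade a, had the largest log2 changes. Serpina3n, an acute-phase inhibitor of leukocyte proteases such as granzyme B in the mouse, was at 118, 116, 199 and 258 FPKM in BAC samples 1 to 4 and at 2.31, 2.50, 3.13 and 8.06 FPKM in PBS samples 1 to 4. BAC samples 3 and 4 were the high ones, PBS 4 stood above the other controls, and the groups were far apart. The mean was 43.2-fold higher with BAC, and 65.3-fold higher when PBS 4 was left out (log2 change 5.17, SE 0.36, limma adjusted p = 1.73e-06). Serpina3n (ENSMUSG00000021091.8) lies on chromosome 12 from 104406729 to 104414329 in GRCm38.

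Its neighbours Serpina3g and Serpina3i were nearly silent in control corneas. Serpina3g, an inhibitor of cysteine cathepsins in mouse leukocytes, was at 8.54, 6.86, 15 and 7.49 FPKM with BAC, while PBS samples 1 and 2 were listed at 0 and samples 3 and 4 at 0.0934 and 0.0451 FPKM (log2 change 3.28). Serpina3i was at 0.770, 0.896, 1.75 and 0.953 FPKM with BAC and at no more than 0.167 FPKM with PBS (log2 change 0.91). After quantile normalization the change of Serpina3i was 0.39 (limma adjusted p = 0.0428), and without BAC 3 the gene fell under the filter and was not tested. BAC 3 was the highest sample for both genes. Mouse Serpina3 genes are close copies. Over coding bases Serpina3i was 92.1% and Serpina3g 87.4% identical to Serpina3f, and Serpina3n 86.0% identical to Serpina3c, neither of which is among the 20 genes, so reads may have been split between copies.

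In clade e Serpine2 rose as well. Serpine2, which encodes protease nexin-1, an inhibitor of thrombin and urokinase, was at 14.4, 18.2, 21.1 and 18.2 FPKM in BAC samples 1 to 4, against 2.03, 0.936, 3.61 and 3.54 FPKM with PBS. All BAC samples were above all PBS samples (log2 change 2.50, SE 0.26, limma adjusted p = 2.52e-05). Serpine3 was listed at 0 in all PBS samples and in BAC 2, and reached 3.49 FPKM in BAC 4 with 0.140 and 0.399 FPKM in BAC 1 and 3. It did not pass (limma adjusted p = 0.154).

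Of the serpins that inhibit no protease outside clade b, Serpinh1 rose in every setting tried, and the smaller rise of Serpinf1 did not hold in all of them. Serpinh1, which encodes the collagen chaperone HSP47 of the endoplasmic reticulum, was at 188, 180, 203.4 and 140 FPKM with BAC and at 15.2, 18.6, 25.2 and 36.9 FPKM with PBS. PBS 4 was the highest control, still far below the lowest BAC sample, and the mean was 7.43-fold higher (log2 change 2.91, SE 0.24, limma adjusted p = 5.18e-06). Serpinh1 (ENSMUSG00000070436.12) lies on chromosome 7 from 99345376 to 99353239.

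Serpinf1, which encodes PEDF, an inhibitor of vessel growth and a trophic factor for corneal nerves, was at 151, 155, 121 and 173 FPKM with BAC and at 92.7, 51.3, 82.1 and 133 FPKM with PBS. PBS 4 lay above BAC 3, so the groups overlapped. Serpinf1 passed on the gene table (log2 change 0.80, SE 0.25, limma adjusted p = 0.0172). It missed the threshold after median-of-ratios scaling, at 0.59 (limma adjusted p = 0.0545), and on the sum of its 3 deposited transcripts, at 0.35 (limma adjusted p = 0.497). Its gene value was 1.78 times what those 3 transcripts give by length, so other transcripts enter it. Serpini1, which encodes neuroserpin, a neuronal inhibitor of tissue plasminogen activator, stayed below 1 FPKM in all 8 samples and did not pass (log2 change 0.22, limma adjusted p = 0.0913). After quantile normalization its change was -0.36 (limma adjusted p = 0.00967).

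In the intracellular clade b, 10 of 11 genes were tested, of which 6 were higher and 2 lower, with a median log2 change of 1.37. These shares of 10 lie near the 45.1% higher and 22.6% lower of all genes tested. In the other clades 9 of 9 were tested and 7 were higher and none lower with limma, also at an unadjusted p of 0.05. Serpina3g, Serpina3i and Serpine3 of the other clades were kept by the filter only through their BAC values and could not have been lower. Whether the clades differ was not tested.

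The 2 serpins that fell were the most abundant clade b genes of control corneas. Serpinb5, which encodes maspin, an epithelial serpin that does not inhibit proteases, was at 95.7, 88.0, 86.5 and 88.2 FPKM with BAC and at 195, 199, 186 and 194 FPKM with PBS. Both groups were tight and far apart, and the mean was 2.16-fold lower (log2 change -1.10, SE 0.05, limma adjusted p = 1.89e-07). Serpinb11, an inhibitor of trypsin-like proteases in the mouse, was at 57.4, 41.1, 45.2 and 39.5 FPKM in BAC samples 1 to 4, against 95.0, 87.9, 77.7 and 72.7 FPKM with PBS. Its mean was 1.82-fold lower with no overlap (log2 change -0.86, SE 0.13, limma adjusted p = 0.000255). Serpinb8, whose human protein inhibits furin, was at 5.58, 11.5, 9.46 and 11 FPKM with BAC. With PBS sample 1 stood at 29.6 FPKM and samples 2 to 4 at 12.5, 11.2 and 9.90 FPKM, and the gene did not pass (log2 change -0.61, limma adjusted p = 0.132).

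Serpinb2 and Serpinb3a, which lie between these genes on chromosome 1, rose. Serpinb2, which encodes PAI-2, a urokinase inhibitor made by keratinocytes and activated macrophages, was at 32.7, 27.2, 28.8 and 47.4 FPKM with BAC and at 0.751, 0.644, 0.707 and 0.433 FPKM with PBS. The mean was 53.7-fold higher (log2 change 4.39, SE 0.16, limma adjusted p = 4.53e-08). Serpinb3a, a mouse counterpart of the human squamous cell carcinoma antigens, inhibits serine and cysteine proteases. It was at 289, 217, 180 and 213 FPKM in BAC samples 1 to 4, against 41.5, 24.7, 34.9 and 23.8 FPKM with PBS. It was 7.20-fold higher with no overlap (log2 change 2.83, SE 0.20, limma adjusted p = 1.66e-06). Its coding bases are 93.1% identical to those of Serpinb3b, which is not among the 20 genes, so the split between these copies is uncertain. Serpinb7, a serpin of the epidermis, was between 0.457 and 1.78 FPKM in all 8 samples, and the groups overlapped. It did not pass (log2 change 0.38, limma adjusted p = 0.0639), and its change was -0.17 after quantile normalization.

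The 4 clade b genes tested on chromosome 13 were all higher with BAC. Serpinb9, the granzyme B inhibitor of cytotoxic lymphocytes and other cells, was at 19.0, 15.5, 17.2 and 15.1 FPKM with BAC and at 2.1, 1.47, 2.15 and 1.94 FPKM with PBS. The mean was 8.72-fold higher (log2 change 2.60, SE 0.10, limma adjusted p = 6.41e-08). Serpinb6b was at 19.3, 17.8, 18.5 and 19.3 FPKM in BAC samples 1 to 4, against 1.48, 0.848, 0.328 and 0.900 FPKM with PBS (log2 change 3.42, SE 0.16, limma adjusted p = 1.76e-07). Serpinb1a, which inhibits neutrophil elastase, cathepsin G and proteinase 3, had the smallest rise of the 4 tested. It was at 49.5, 44.8, 55.0 and 41.2 FPKM with BAC and at 26.6, 28.0, 23.0 and 24.8 FPKM with PBS, 1.86-fold higher (log2 change 0.87, SE 0.10, limma adjusted p = 4.11e-05). Serpinb1b, 90.7% identical to Serpinb1a over coding bases, was not tested. It was at 0.953, 0.599, 0.648 and 0.229 FPKM with BAC, whereas 3 of the 4 controls were listed at 0. No deposited gene averaged under 0.501 FPKM in its higher group. Serpinb1b thus had a row only through its BAC values, which set its direction. Serpinb6b is 87.9% identical to Serpinb6c and Serpinb9 86.4% identical to Serpinb9b over coding bases, neither among the 20 genes, so reads of these genes too may have been split between copies.

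By position, the genes of chromosome 1 went both ways, and the tested genes of chromosomes 12 and 13 were higher. Along chromosome 1 from 106861173 to 107610484 the order was Serpinb5, Serpinb3a, Serpinb11, Serpinb7, Serpinb2 and Serpinb8, with 2 genes higher, 2 lower and 2 that did not pass. A gene that rose lay between the 2 genes that fell. On chromosome 12 all 3 clade a genes were higher, and on chromosome 13 all 4 clade b genes tested. Serpina3g and Serpina3i could not have been lower, because the filter kept them only through their BAC values. Of all genes tested 45.1% were higher and 22.6% lower, and whether the chromosomes differ was not tested.

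**Figure D3:**
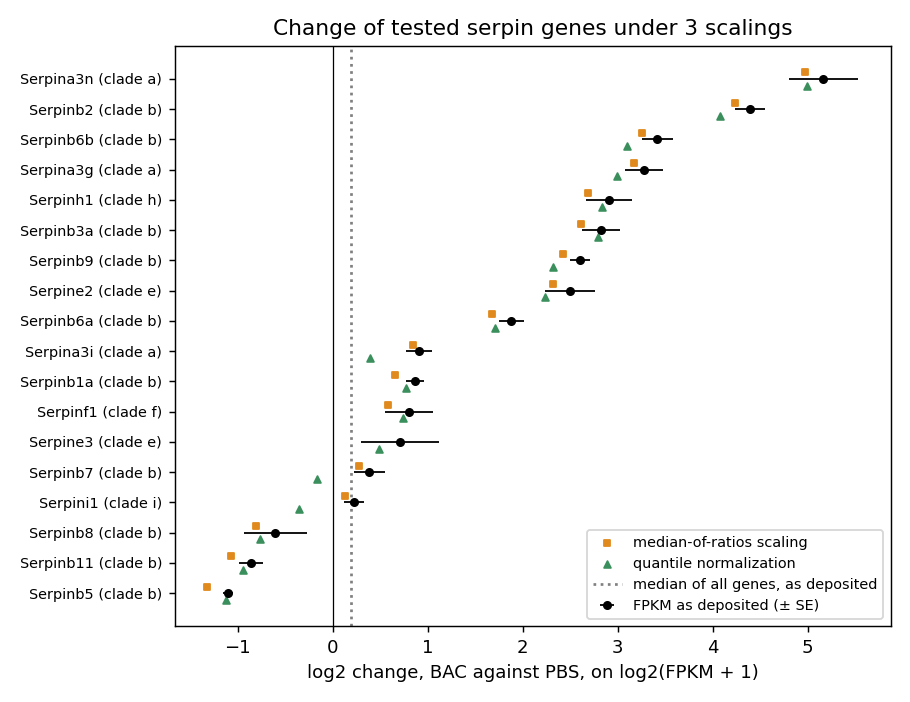
Log2 change of 18 of the 19 tested serpin genes with BAC against PBS on the log2(FPKM + 1) scale, with black points and SE bars for the FPKM as deposited, squares for median-of-ratios scaling and triangles for quantile normalization. Serpine3 has no square because it fell under the filter after that scaling. Serpinb7 and Serpini1 change sign after quantile normalization, and the others keep theirs wherever a value exists.

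The promoters of the genes with the largest rise and the largest fall in the chromosome 1 stretch are shown because these genes moved in opposite directions. The sequences are from RefSeq on GRCm38.p6 and run from 250 bases before to 50 bases after the annotated start, 5′ to 3′ on the gene's strand. Capitals mark matches to TTCNNNGAA (the core of STAT sites), TGANTCA (AP-1), GAANNTTC (part of the heat shock element) and TATAAA (the TATA box), searched on both strands. No match shown overlaps another.
Serpinb2, chr1:107511173-107511472, plus strand: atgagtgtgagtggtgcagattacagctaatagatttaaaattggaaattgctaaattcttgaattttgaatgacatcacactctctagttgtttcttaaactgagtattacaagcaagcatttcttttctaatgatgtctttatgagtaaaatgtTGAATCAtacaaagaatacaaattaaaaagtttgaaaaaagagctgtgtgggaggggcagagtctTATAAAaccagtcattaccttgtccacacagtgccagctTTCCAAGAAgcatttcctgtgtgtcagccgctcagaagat
Serpinb5, chr1:106860925-106861224, plus strand: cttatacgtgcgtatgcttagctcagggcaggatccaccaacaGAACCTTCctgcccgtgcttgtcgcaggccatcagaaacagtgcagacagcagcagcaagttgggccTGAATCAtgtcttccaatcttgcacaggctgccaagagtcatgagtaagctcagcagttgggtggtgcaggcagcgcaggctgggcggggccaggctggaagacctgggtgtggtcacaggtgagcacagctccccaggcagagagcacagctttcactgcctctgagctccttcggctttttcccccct

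Counting the annotated start as position 0, the Serpinb2 window holds TATAAA from position -29, TGANTCA from -94 and TTCNNNGAA from 10. The Serpinb5 window holds TGANTCA from -140 and GAANNTTC from -207. Of 32851 promoter windows of this length 13.6% held TATAAA, 7.81% TGANTCA, 8.30% TTCNNNGAA and 7.86% GAANNTTC. Among the 20 windows of the 18 serpins with an entry, 4, 6, 5 and 2 held them. The 2 Serpinb2 windows overlap and count separately, and a match is a run of letters, not a shown binding site.

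Serpinb6a, an inhibitor of cathepsin G and trypsin-like proteases, rose with BAC and also changed in which of its transcripts were measured. Its gene value was 24.8, 25.2, 24.5 and 25.4 FPKM with BAC and 6.71, 4.72, 5.15 and 8.11 FPKM with PBS. BAC samples were nearly equal and all above the controls, and the mean was 4.04-fold higher (log2 change 1.88, SE 0.14, limma adjusted p = 2.00e-06). Serpinb6a (ENSMUSG00000060147.15) lies on the minus strand of chromosome 13 from 33917918 to 34002794. Its coding bases are 87.2% identical to those of Serpinb6c, which is not among the 20 genes.

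The authors deposited 8 of the 17 Serpinb6a transcripts that GENCODE M21 lists. They start at either of 2 places. Serpinb6a-203, Serpinb6a-211 and Serpinb6a-214 start upstream, near position 34002794, and the other 5 start downstream, between 33935954 and 33936198. The last of these positions, the start of Serpinb6a-202, is 66596 bases away. RefSeq has a promoter window at each place, which are shown because the share of transcripts from each start differed between the groups. Capitals have the same meaning as above.
Serpinb6a upstream start, chr13:34002745-34003044, minus strand: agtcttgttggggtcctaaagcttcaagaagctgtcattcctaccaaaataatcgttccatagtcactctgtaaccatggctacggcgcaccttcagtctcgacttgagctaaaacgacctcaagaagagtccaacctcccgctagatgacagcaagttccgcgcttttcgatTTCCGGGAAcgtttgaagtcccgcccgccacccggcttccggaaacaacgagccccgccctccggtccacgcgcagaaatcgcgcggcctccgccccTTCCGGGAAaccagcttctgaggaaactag
Serpinb6a downstream start, chr13:33936034-33936333, minus strand: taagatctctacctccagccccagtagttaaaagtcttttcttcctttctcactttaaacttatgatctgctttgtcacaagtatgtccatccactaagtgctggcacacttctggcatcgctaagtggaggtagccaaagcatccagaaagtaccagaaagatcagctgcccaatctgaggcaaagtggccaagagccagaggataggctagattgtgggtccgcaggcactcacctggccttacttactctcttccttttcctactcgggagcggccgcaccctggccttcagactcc

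The windows differ in CG content. The upstream window holds 25 CG pairs and the downstream window 5. TTCNNNGAA occurs in the upstream window at positions -77 and 20, and none of the 4 motifs occurs in the downstream window. The RefSeq downstream start, 33936083, lies between the starts of Serpinb6a-202 and Serpinb6a-201.

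Transcripts from the downstream start were low in control corneas and made up most of the gene's FPKM with BAC. Serpinb6a-201 was at 49.7, 45.8, 40.4 and 54.6 FPKM with BAC, and with PBS it was listed at 0 in samples 1 to 3 and at 0.163 FPKM in sample 4 (log2 change 5.54, SE 0.12, limma adjusted p = 1.75e-07 over 23349 transcripts). Serpinb6a-202 was at 22.9, 17.2, 19.5 and 26.1 FPKM with BAC and at 3.62, 4.34, 2.74 and 5.66 FPKM with PBS (log2 change 2.16, SE 0.20, limma adjusted p = 9.51e-05). The short Serpinb6a-215 was also higher (log2 change 2.15, limma adjusted p = 0.0365), a call that was lost without any of BAC 2, BAC 3, BAC 4, PBS 1, PBS 3 or PBS 4, at a limma adjusted p of 0.0511 to 0.0903. Of the 7 transcripts tested 3 were higher and 1 lower, where 23.0% of all transcripts were higher and 11.6% lower, together 34.6%. Serpinb6a-204 was not tested, and Serpinb6a-211 and Serpinb6a-213 did not pass.

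The transcript that fell was Serpinb6a-203, the main upstream form. It was at 0.00325, 0.179, 0.00242 and 0.168 FPKM with BAC and at 15, 7.72, 10.3 and 15.4 FPKM with PBS (log2 change -3.54, SE 0.23, limma adjusted p = 1.37e-05). Serpinb6a-214, an incomplete model from the same start, shares all 6 of its splice junctions with Serpinb6a-203 and ends earlier in the annotation. It was at 9.55, 7.65, 15.3 and 0 FPKM with BAC and at 0.000559, 3.11, 2.23 and 2.50 FPKM with PBS, and did not pass (limma adjusted p = 0.335; without BAC 4 it passed, at a log2 change of 2.13 and a limma adjusted p of 0.0210). Reads over the shared exons cannot be told apart between these models, so the models were also summed. That sum was 9.56, 7.82, 15.3 and 0.168 FPKM with BAC and 15, 10.8, 12.5 and 17.9 FPKM with PBS, with overlap between the groups (exact permutation test, two-sided, p = 0.143, n = 4 per group).

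Summed by start, the downstream transcripts were at 76.3, 81.8, 70.7 and 94.7 FPKM with BAC and at 6.10, 7.07, 3.88 and 7.83 FPKM with PBS. The mean was 13-fold higher and the groups were far apart (p = 0.0286 in a two-sided exact permutation test, the least that 70 assignments allow). The upstream transcripts were at 10.4, 8.57, 15.9 and 0.852 FPKM with BAC and at 15.5, 11.3, 13.3 and 18.7 FPKM with PBS, which overlap (exact permutation test, two-sided, p = 0.143). The downstream start thus held 89.8% ± 7.23 of Serpinb6a transcript FPKM with BAC, and in control corneas its share was 29.7% ± 6.59 (SD, n = 4). These shares lay 60.1 points apart (two-sided exact permutation test, p = 0.0286). This grouping by start was chosen after the values were seen. The gene value of Serpinb6a was 1.12 times what its deposited transcripts give by length. Other transcripts thus enter the gene value, and their starts are unknown and no part of these shares.

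Transcript by transcript, the share of Serpinb6a-201 was 53.0% with BAC against 0.154% with PBS and that of Serpinb6a-203 was 0.0951% against 57.3%. Neither difference passed after adjustment over the 8 transcripts (exact permutation test, two-sided, adjusted p = 0.0762 for both, at the smallest raw p the design allows). Serpinb6a-202 held 23.8% with BAC and 19.4% with PBS. By the annotation Serpinb6a-202 and Serpinb6a-203 carry the same coding part of 378 codons, beginning at position 33931636. The coding part of Serpinb6a-201 begins further upstream, at 33935679, and has 399 codons, 21 more. The form that differs in its coding part was therefore the main one with BAC and nearly absent with PBS.

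**Figure D4:**
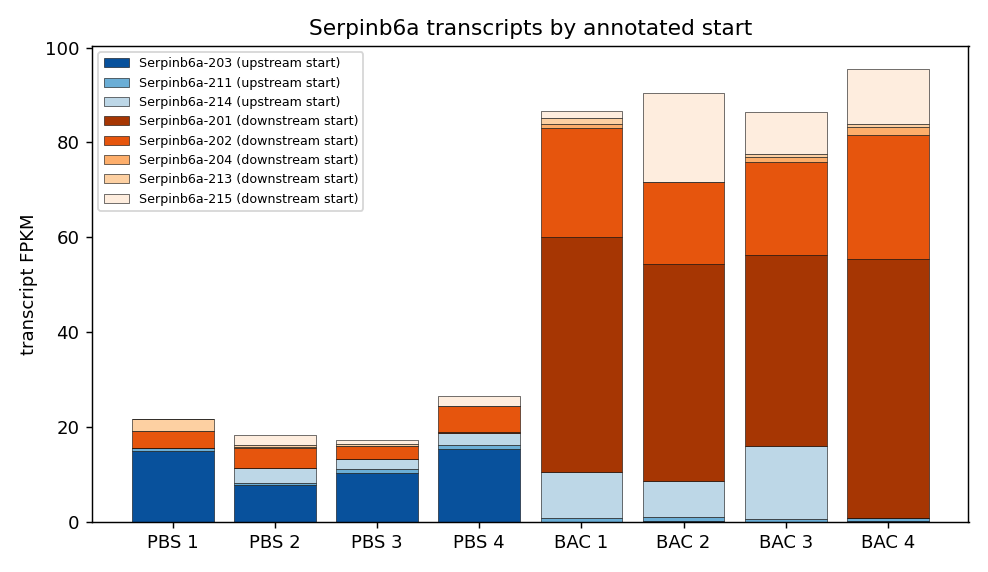
FPKM of each Serpinb6a transcript in each sample, stacked, with transcripts from the upstream start in blue and those from the downstream start in orange. The blue part is 11.3 to 18.7 FPKM in PBS samples and 0.852 to 15.9 FPKM in BAC samples, while the orange part is 3.88 to 7.83 FPKM and 70.7 to 94.7 FPKM.

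Genes of the proteases that serpins act on went in several directions. The counts below are to be read against all genes tested, of which 45.1% were higher and 22.6% lower. Of 10 tested genes for plasminogen activation and fibrinolysis 6 were higher and 4 lower (median log2 change 0.87, against 0.19 for all genes). Plaur, the urokinase receptor, averaged 9.97 ± 2.43 FPKM in BAC corneas and 0.296 ± 0.159 FPKM in controls (SD, n = 4), and Plat, the tissue plasminogen activator, was 4.79-fold higher. F3, the tissue factor that starts coagulation, was 3.73-fold lower. Of the 9 tested genes of the thrombin and coagulation list, F5, F7, F10, F13a1 and Tfpi2 averaged under 0.5 FPKM in controls. They were kept by the filter only through their BAC values, so no count or median is read from this list. The thrombin receptor F2r was 3.37-fold higher, and the fibrin crosslinking subunit F13a1 had a log2 change of 2.67. F7 was listed at 0 in all PBS samples and had a log2 change of 1.73.

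Of the leukocyte serine proteases 5 were tested. All 5 averaged under 0.5 FPKM in controls and were kept by the filter through their BAC values alone, so no count or median is read from this list. The mast cell chymase Cma1 averaged 5.90 ± 1.68 FPKM in BAC corneas and 0.334 ± 0.242 FPKM in controls. Mcpt4, another mast cell protease, averaged 4.39 ± 2.02 and 0.222 ± 0.112 FPKM. Gzmb, the granzyme that Serpinb9 blocks, was listed at 0 in all PBS samples and had a mean of 2.85 FPKM with BAC. Genes of any list whose controls averaged under 0.5 FPKM were kept by the filter through their BAC values, which set their direction. Such genes were Plaur, Vtn, F7, F13a1, Klk13, Ctsw, Stfa2, Stfa2l1 and P4ha3, among others. Of 17 epithelial serine proteases 4 were higher and 8 lower (median -0.12). Tmprss11a and Tmprss11e, membrane proteases of squamous epithelia, were 2.67-fold and 2.36-fold lower, whereas the kallikrein Klk13 averaged 23.3 ± 8.81 FPKM in BAC corneas and 0.103 ± 0.0318 FPKM in controls.

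Lysosomal cysteine cathepsins, which Serpina3g and Serpinb3a can block, were higher in 7 of 10 and lower in 1 (median 1.39), with Ctss 15.2-fold, Ctsz 11.1-fold and Ctsb 3.22-fold higher. Of 22 protease inhibitors outside the family 12 were higher and 7 lower (median 0.75), where 45.1% of all genes were higher and 22.6% lower. Wfdc2 was 4.94-fold higher and Spink5, the inhibitor of epidermal kallikreins, 7.38-fold higher. Stfa2l1, a stefin gene, had a log2 change of 4.65. All 19 genes of collagens and their folding partners, the group in which Serpinh1 acts, were higher (median 1.89). Col3a1 averaged 446 ± 66.2 FPKM in BAC corneas and 3.90 ± 2.06 FPKM in controls, Ppib, a prolyl isomerase of the endoplasmic reticulum, was 2.29-fold higher, and P4ha3 had a log2 change of 3.05.

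Markers of several cell types moved in the same samples, and in bulk tissue a change in the number of cells of a type cannot be told apart from a change in RNA per cell. Beside the marker counts stand the 45.1% higher and 22.6% lower of all genes tested. Of 14 corneal epithelium markers 13 were lower and 1 higher with BAC, and their summed FPKM ran from 5170 to 6426 with BAC and from 27663 to 29127 with PBS. Slurp1 among them averaged 0.1345 FPKM with BAC and 236 FPKM with PBS. The filter kept Slurp1 only through its PBS values, which set its direction. All 11 neutrophil markers were higher, at a summed 933 to 1884 FPKM against 7.44 to 34.4 FPKM, with Fpr1, Fpr2, Mmp8 and Retnlg listed at 0 in every PBS sample. Of these markers only Ltf and S100a9 averaged at least 0.5 FPKM in controls. The direction of the rest was set by the filter, so their count is not read as a result. Of 14 rows for macrophages, monocytes and dendritic cells 12 were higher and none lower, at 881 to 1127 FPKM against 69.4 to 76.1 FPKM. Adgre1, Itgax, Fcgr1 and Ccr2 among them averaged under 0.5 FPKM in controls, which set their direction. Keratocyte and fibroblast markers were higher in 9 of 12 and lower in 2, at 2383 to 2975 FPKM against 640 to 1388 FPKM.

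All 9 tested vessel markers were higher, at 113 to 148 FPKM against 5.81 to 14 FPKM. Conjunctival markers were higher in 7 of 8 and lower in 1, at 2752 to 3648 FPKM against 1020 to 1426 FPKM. Markers of epidermal or wound epithelium were higher in 7 of 11 and lower in 2, at 3148 to 3936 FPKM against 2645 to 3021 FPKM, with Sprr1b listed at 0 in every PBS sample. Mast cell markers were higher in 5 of 6 and lower in 1, at 15.4 to 37.6 FPKM against 25.3 to 36.3 FPKM. Nearly all of the control sum was Kit, the gene that was lower, at 31.3 ± 4.56 FPKM against 3.45 ± 0.349 FPKM with BAC (SD, n = 4), while each of the other 5 averaged under 0.5 FPKM in controls. Fcer1a was listed at 0 in every PBS sample. Lymphocyte markers were higher in 2 of 2 tested, at 5.79 to 8.83 FPKM against 0 to 0.0723 FPKM, with Cd3d, Gzmb and Nkg7 listed at 0 in every PBS sample. The tested Gzmb and Cd4 averaged under 0.5 FPKM in controls, so the filter set their direction. The same held for Flt1, Vwf, Krtdap, Sprr1b, Sprr2d and Hbb-bt in the other marker lists. Red blood cell markers were higher in 4 of 5 and lower in 1, at 21.6 to 53.5 FPKM against 2.74 to 12.9 FPKM. The 1 liver and plasma marker tested did not pass, at 1.61 to 26.0 FPKM against 0 to 7.53 FPKM. Cma1, Mcpt4, Tpsb2 and Gzmb stand in both a protease list and a marker list. The part of these cell types in the serpin changes was not tested.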

How the data were processed

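The authors deposited FPKM per gene and per transcript for 8 samples, all protein-coding per the file headers; per the submitters' processing notes, which give neither role nor sequence of steps, HISAT2 2.1.0, StringTie 1.3.3 and GRCm38 were used. All 20 serpin genes had the same identifier and coordinates in GENCODE M21. The lowest mean FPKM of the higher group over all deposited genes was 0.501, so genes low in both groups have no row. In 100% of 11597 genes the deposited gene FPKM was no lower (tolerance 0.1%) than the length-weighted FPKM of the gene's deposited transcripts divided by its annotated exon length, and in 34.1% it lay within 1% of it. Read depth is unknown. Among 300 low values taken from each sample only 17.0% to 48.3% were whole multiples of a common step (tolerance 0.05), so whole reads could not be recovered, and no intervals are given.

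Genes with a mean of at least 0.5 FPKM over 8 samples were tested on log2(FPKM + 1) with limma 3.58.1 in R 4.3.3, fitting the group, with a prior variance that followed the mean level. Tests were two-sided, and p-values were adjusted by Benjamini-Hochberg across every gene tested. Transcripts were tested likewise. Folds are ratios of mean FPKM; log2 changes understate low genes. Shares and sums were compared with exact permutation tests. The members and lists were chosen with earlier results of these data known. One clade e gene is counted but not reported here. The other members are named, with up to 3 genes per list of smallest adjusted p; other genes were chosen after their values were seen. Closeness of copies was counted over globally aligned coding bases of each gene's longest coding transcript. On simulated tables of 12967 genes the test called 69% of genes shifted by 0.5 log2 and 84% of those shifted by 1, and 12 unshifted genes. On 23349 transcripts it called 19% and 39%, and 13 unshifted ones. Only rows with a control mean of log2(FPKM + 1) above 1 were shifted, and both groups were given the spread of the controls. The rates therefore do not cover genes lower than this in controls, such as Serpina3g and Serpinb2. Figures were drawn with matplotlib 3.10.9 in Python 3.11.15.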

Additional observations from a re-analysis of the deposited data

Results flagged for a closer look

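In 56 groups of 4 samples examined on log2(FPKM + 1), 4 had a sample set apart from the others. A lone value above 0 is always set apart from values of 0, so the usual chance rate of about 1 in 20 does not hold for such groups. Serpinb1b was at 0.0510 FPKM in PBS 3 and listed at 0 in the other controls. Serpinb6a-201 was at 0.163 FPKM in PBS 4 and listed at 0 in the other controls. Serpinb6a-204 was at 0.0590 FPKM in PBS 2 against at most 0.000636 FPKM in the others. Serpinb6a-214 was at 0.000559 FPKM in PBS 1 and at 2.23 to 3.11 FPKM in the others, while Serpinb6a-203, with which it shares its splice junctions, was at 15 FPKM there. Outside the gene table, the transcript Serpinb10-202 had a mean of 4.86 ± 1.39 FPKM with BAC against 0.677 ± 0.286 FPKM with PBS (SD, n = 4).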

How the results depend on the processing

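Other settings tried were median-of-ratios scaling, quantile normalization, a pseudocount of 0.1, a filter at 2 or none, a prior without trend, a replicate block, each sample left out in turn and, added after seeing the data, gene values summed from transcripts. Over these the serpin counts ran from 12 to 14 higher and from 2 to 3 lower. With quantile normalization 4990 of all genes were lower, and 1 serpin outside clade b was lower, Serpini1, at a log2 change of -0.361. Leaving out each sample in turn gave 5480 to 5771 higher and 2701 to 2828 lower genes, 12 to 14 serpins higher and 2 lower. The cause of these moves was not tested. Calls also changed for Serpinb7, which passed without BAC 2 at 0.473, without PBS 1 at 0.497 and on summed transcripts at 0.634, and for Serpini1, which passed without PBS 4 at 0.306. For Serpinb6a-215 the call was lost with a pseudocount of 0.1 and with quantile normalization. With the pseudocount of 0.1 the log2 changes of Serpina3g, Serpina3i, Serpinb6a-201 and Serpinb6a-203 became 6.14, 2.61, 8.54 and -6.13. Serpina3i was at 0.394 with quantile normalization and fell under the filter at 2 and without BAC 3. Same-numbered samples deviated together with r of 0.0527 to 0.121, under 0.1 for 1 of 4 pairs. For 3 of 4 numbers the samples correlated best with their own number, so some structure shared by number is possible. The labels name no pairs, and the main fit took none. With the replicate block 13 serpins were higher and 2 lower, and the share of Serpinb6a-201 differed by 52.8 points (exact sign-flip test over 4 pairs, adjusted p = 0.25). FPKM without counts limit what can be said of genes near 0.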
